A study of Bos taurus with 60 samples.

Results

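The miR-34 and miR-449 family was examined in the liver of 60 beef steers. Its members were the known bovine miRNAs bta-miR-34a, bta-miR-34b, bta-miR-34c, bta-miR-449a, bta-miR-449b and bta-miR-449c, taken by name, which made 6 of the 1030 mature miRNAs in the count files. The study sequenced small RNA from the liver of 20 Angus, 20 Charolais and 20 Kinsella Composite (KC) steers, the last a crossbred beef population, with 1 library per steer. All were castrated males fed a barley-based finishing diet. In each breed 6 steers were labelled low-RFI and 6 high-RFI, and 8 had no RFI group in the labels. RFI is residual feed intake, the feed an animal eats beyond what its size and growth predict, so that low-RFI steers are the efficient ones. The paper took all 20 steers of each breed from the highest and lowest RFI values measured. Steers without a label therefore also came from these extremes, and the 60 steers do not cover the middle of the RFI range. Per the paper, the steers compared by RFI were extreme in RFI and also had consistent miRNA expression beside others of their breed. The RFI groups were therefore chosen in part on miRNA levels, and the p-values by RFI group do not allow for this. The steers came from 7 sires in Angus, 5 in Charolais and 11 in KC, and therefore many were half-sibs. The p-values treat steers as independent.

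MicroRNAs guide Argonaute proteins to messenger RNAs, mainly through pairing of the seed, bases 2 to 8 of the mature strand, and so lower the output of their targets. The miR-34 genes are known as direct targets of the tumour suppressor p53, and their products repress genes that drive the cell cycle. In liver, miR-34a is known for repressing SIRT1, a deacetylase that controls lipid metabolism. The miR-449 genes are known for their high level in airway and other ciliated epithelia, where miR-34 and miR-449 together promote the formation of cilia.

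The mature sequences below, shown because they define the family and bear on how well its reads can be told apart, are written 5′ to 3′ with the seed in capitals.
bta-miR-34a: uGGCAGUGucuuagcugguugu
bta-miR-34b: aGGCAGUGuaauuagcugauug
bta-miR-34c: aGGCAGUGuaguuagcugauug
bta-miR-449a: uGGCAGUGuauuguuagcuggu
bta-miR-449b: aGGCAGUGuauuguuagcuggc
bta-miR-449c: aGGCAGUGcaucucuagcugg
All 6 members carried the same seed, GGCAGUG, and no other did among the 588 mature sequences in the study's list. Counted from the 5′ end, bta-miR-34b and bta-miR-34c differed by a single substitution, A11G. bta-miR-449a and bta-miR-449b differed only at their ends, by U1A and U22C, and share 20 bases in a run. bta-miR-449c was farther from bta-miR-449a, with 5 mismatches over the 21 bases compared. How many reads of one near-identical member were counted for the other was not measured, so that the levels of bta-miR-34b and bta-miR-449b in particular are uncertain. In the RefSeq gene table of the newer bovine assembly ARS-UCD2.0, used here for gene neighbours only, MIR449A, MIR449B and MIR449C lay close together within CDC20B on chromosome 20. MIR34B and MIR34C lay together on chromosome 15, and MIR34A on chromosome 16.

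The libraries held 1930856 to 6759380 counts per steer, so that 3 counts, used here as the floor, stood for 0.457 to 1.51 CPM (counts scaled to the library total and by the TMM normalization factor). PCR copies of a molecule are counted separately, and the floor therefore covers counting error only. Hepatocyte markers were abundant in every steer, with bta-miR-122 between 5361 and 17371 CPM and bta-miR-192 between 175373 and 348101 CPM, and markers of biliary epithelium, leukocytes, red cells, mesenchymal cells and endothelium were also present in every library. In bulk liver, fewer cells of a type and less RNA per cell cannot be told apart.

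The family was a minor component of the liver miRNAome. Its members took 4537 reads over the 60 steers, of which bta-miR-34a held 69.6%, bta-miR-449a 19.2% and bta-miR-34c 9.06%. The other members, bta-miR-449b, bta-miR-34b and bta-miR-449c, held 36, 32 and 30 reads in all. bta-miR-34a was read in every steer, with 14 to 140 counts and a mean of 11.7 ± 4.12 CPM (SD, n = 60), which placed it at rank 209 by level among the 810 miRNAs with any read. bta-miR-449a was also read in every steer, but with only 1 to 71 counts and a mean of 3.23 ± 3.12 CPM. bta-miR-34c had 1 to 19 counts and a mean of 1.52 ± 0.685 CPM, close to the floor.

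Within steers the order of the read levels was clear for the upper members. These are reads of different sequences, and how evenly the libraries captured each was not measured. The order of reads therefore need not be that of molecules. bta-miR-34a had more reads than bta-miR-449a in 58 of 60 steers, with a mean difference of 2.22 on the log2 CPM scale (SD 1.17, sign-flip permutation test, adjusted over 5 neighbouring pairs, adjusted p = 2.5e-05). The exceptions were Angus low-RFI replicate 2, with 35 reads of bta-miR-34a and 48 of bta-miR-449a, and Charolais low-RFI replicate 6, with 32 and 47 reads. bta-miR-449a had more reads than bta-miR-34c in 42 steers and fewer in 16 (mean log2 difference 0.69, SD 1.32, permutation test, adjusted p = 0.00015). bta-miR-34c had more reads than bta-miR-449b in all 60 steers. The order among the sparse members was not resolved. No mean difference was detected between bta-miR-449b and bta-miR-34b (permutation test, adjusted p = 0.904) or between bta-miR-34b and bta-miR-449c (adjusted p = 0.546).

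The sparse members were seen in a minority of steers at this depth. bta-miR-34b had a read in 26 of 60 steers, bta-miR-449b in 24 and bta-miR-449c in 20, and the highest counts in a single steer were 4, 3 and 5. A count of 0 in these libraries allows a level up to the floor given above, so that steers without a read cannot be said to lack the miRNA. bta-miR-449c was read in 7 Angus, 3 Charolais and 10 KC steers, bta-miR-449b in 6, 8 and 10, and bta-miR-34b in 9, 8 and 9. KC libraries were the deepest, and with every library thinned to 1930856 counts the totals fell to 10 steers with bta-miR-34b, 16 with bta-miR-449b and 10 with bta-miR-449c. In thinned libraries bta-miR-449c was read in 4 Angus, 2 Charolais and 4 KC steers. For bta-miR-449b it was 6, 5 and 5, and for bta-miR-34b 3, 3 and 4.

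**Figure D1:**
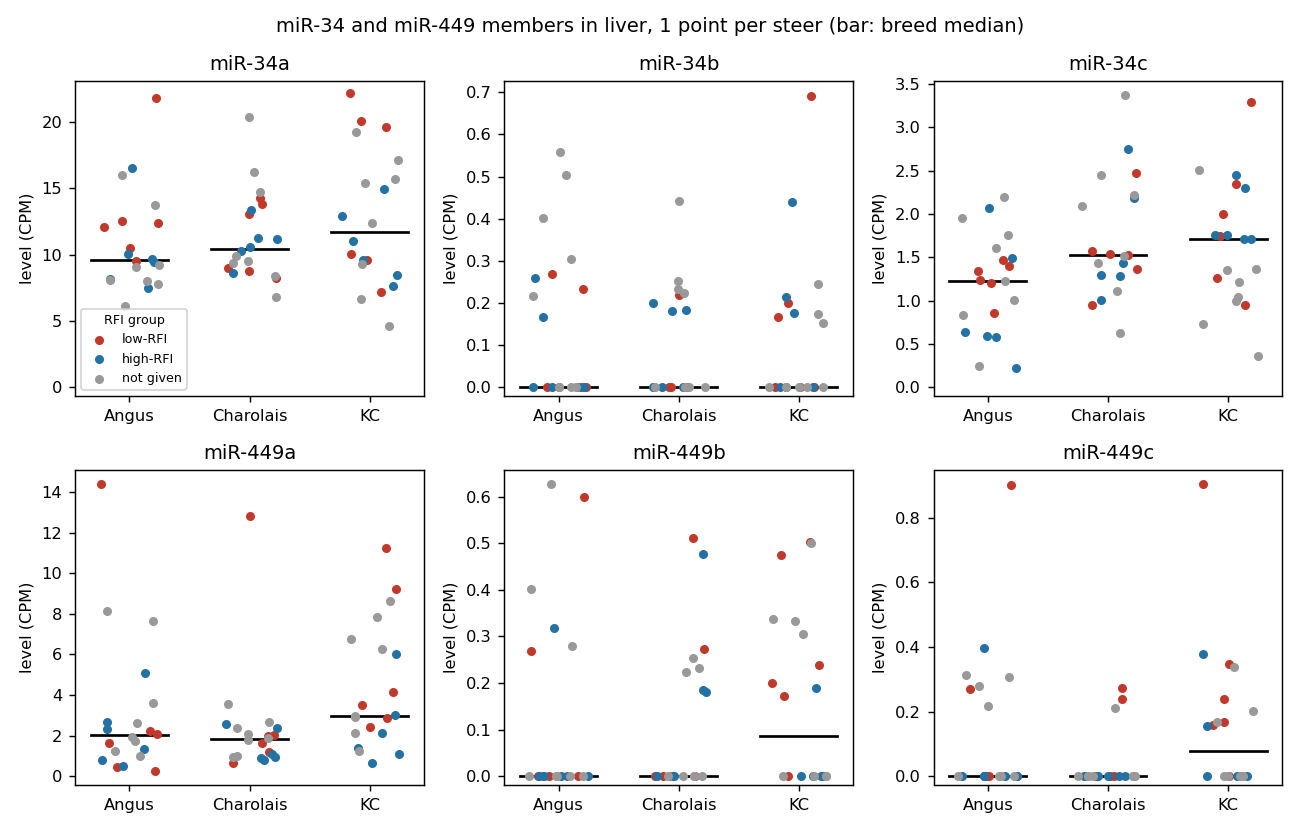
Level of each member (CPM, y axis, with its own scale in each panel) in the 60 steers by breed (x axis), 1 point per steer coloured by RFI group, with bars at breed medians. bta-miR-34a and bta-miR-34c lie above 0 in every steer with ranges that overlap between breeds. bta-miR-449a has a long upper tail in Angus and KC and 1 far steer in Charolais. Most steers sit at 0 for bta-miR-34b, bta-miR-449b and bta-miR-449c.

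bta-miR-449a varied more between steers than any miRNA of like abundance. Its lowest level was 0.248 CPM and its highest 14.4 CPM, and its median of 2.12 CPM was well under its mean. The biological coefficient of variation of edgeR, the spread between steers of a breed beyond counting noise, was 0.724. This was the fourth highest of 397 miRNAs tested and the highest of the 59 miRNAs within 0.5 log2 CPM of its level, whose median was 0.254. bta-miR-34a had a coefficient of 0.304, at rank 96 of 397 and rank 7 of the 36 miRNAs near its level. bta-miR-34c had one of 0.243, below the median of 0.299 of its 77 neighbours. 

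**Figure D2:**
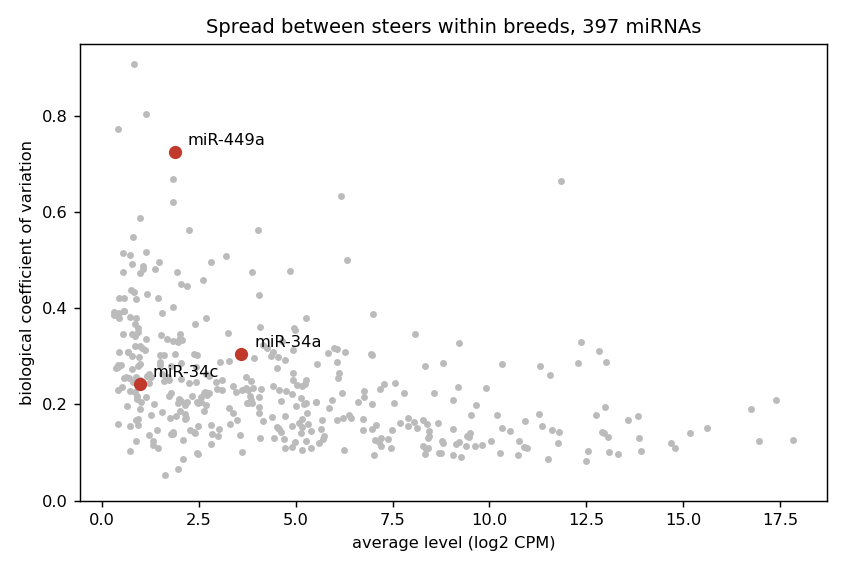
Biological coefficient of variation within breeds (y axis) against average level (log2 CPM, x axis) for 397 miRNAs, with the members in red. bta-miR-449a, at 0.724, lies above all miRNAs of similar level, while bta-miR-34a and bta-miR-34c lie within the cloud.

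The high levels were found in several half-sib families, mostly of KC and Angus, with 1 Charolais steer among the 10 highest. The next Charolais steer had 3.54 CPM. Beside Angus low-RFI replicate 2 at 14.4 CPM and Charolais low-RFI replicate 6 at 12.8 CPM, the next were KC low-RFI replicates 6 and 5 at 11.3 and 9.21 CPM, and then 6 steers with no RFI label, 4 KC and 2 Angus, between 6.26 and 8.61 CPM. The 10 steers had 9 different sires. Within a half-sib family the level also ranged widely. The 8 KC steers of the largest KC family had 1.1 to 7.85 CPM with a median of 2.27, and the 6 steers of the largest Angus family had 0.431 to 7.64 CPM with a median of 1.64. In the largest Charolais family of 8 steers the range was narrower, from 0.805 to 2.67 CPM. bta-miR-34c ranges overlapped less than those of bta-miR-449a between 2 Angus families, with 0.584 to 1.49 CPM in the 6 steers of one and 1.34 to 2.19 CPM in the 5 steers of the other. These were 2 to 9 reads a steer in the former and 4 to 9 in the latter, some under the floor. They are given as a description without a test.

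The next question was whether steers high in bta-miR-449a were also high in the other members, on log2 CPM with breed means subtracted. Its neighbours in CDC20B rose with it, and no miR-34 member passed the test. bta-miR-449b rose with bta-miR-449a with Pearson's r = 0.52 and Spearman's rho = 0.45 over 60 steers (permutation test of 100000 resamples within breeds, p = 3e-05 and 0.00024, adjusted p = 0.0009 and 0.0072 over 30 relations). bta-miR-449c did so with r = 0.52 and rho = 0.42 (permutation p = 6e-05 and 0.00135, adjusted p = 0.0009 and 0.0202). Without the 2 steers farthest from the median of bta-miR-449a, r was 0.45 for bta-miR-449b (permutation p = 0.00046) and 0.40 for bta-miR-449c (permutation p = 0.00455).

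bta-miR-34a had r = 0.20 and rho = 0.25 (permutation p = 0.134 and 0.0631, adjusted p = 0.309 and 0.247), and r = 0.26 without the 2 farthest steers. bta-miR-34c had r = 0.08 (adjusted p = 0.775), and bta-miR-34b had r = -0.21 (adjusted p = 0.303). In the 36 steers with an RFI label, with RFI group as a further term, r was -0.36 for bta-miR-34b (permutation p = 0.0417, unadjusted) and -0.11 for bta-miR-34c. The difference between the r of a miR-449 and that of a miR-34 member was itself not tested. The miR-34 members also had no relation among themselves that passed the test, with r = 0.02 between bta-miR-34a and bta-miR-34c (adjusted p = 0.925) and r = 0.18 between bta-miR-34b and bta-miR-34c (adjusted p = 0.332). bta-miR-449b and bta-miR-449c had r = 0.29 (adjusted p = 0.142).

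**Figure D3:**
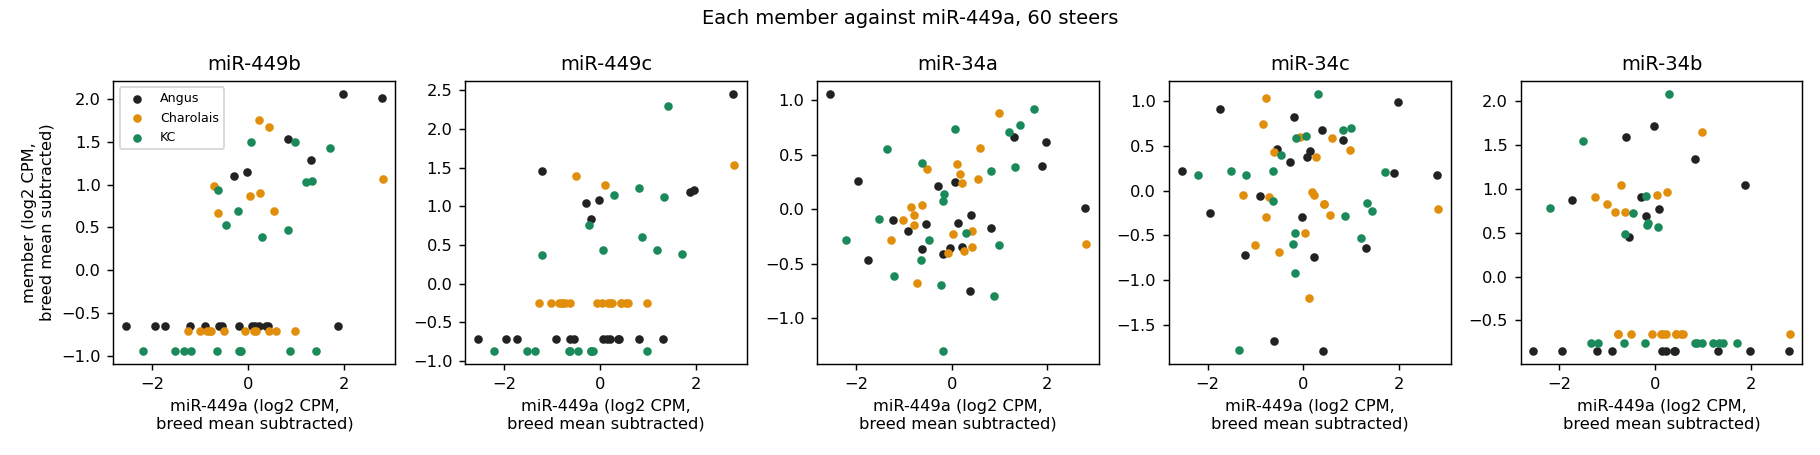
Log2 CPM of each other member (y axis) against log2 CPM of bta-miR-449a (x axis) after subtracting breed means, 1 point per steer coloured by breed. The rows of points at the bottom of the bta-miR-449b, bta-miR-449c and bta-miR-34b panels are steers without a read. For bta-miR-449b and bta-miR-449c the steers with reads lie toward higher bta-miR-449a, with r = 0.52 in both panels.

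The direction held in each breed with unequal strength. For bta-miR-449b, r with bta-miR-449a stood at 0.62 in Angus (permutation p = 0.00352, adjusted p = 0.0264), 0.35 in Charolais (adjusted p = 0.303) and 0.53 in KC (adjusted p = 0.111), n = 20 each. For bta-miR-449c it was 0.48 in Angus (adjusted p = 0.142), 0.41 in Charolais (adjusted p = 0.267) and 0.63 in KC (permutation p = 0.00307, adjusted p = 0.0264). Without the 2 farthest steers of each breed, bta-miR-449b had r = 0.51 in Angus, 0.19 in Charolais and 0.42 in KC (permutation p = 0.0852). bta-miR-449c in KC stayed at 0.64 but fell to 0.24 in Angus and to -0.07 in Charolais, so that in the latter breeds its relation rests on those steers. Only 3 Charolais steers had a read of bta-miR-449c.

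KC low-RFI replicate 6 had 71 reads of bta-miR-449a, 3 of bta-miR-449b and 1 of bta-miR-449c. Angus low-RFI replicate 2 had 48, 2 and 3 reads, and KC low-RFI replicate 5 had 51, 0 and 5. None of these 3 steers had a read of bta-miR-34b. By total reads, bta-miR-449b was at 3.77 reads per 100 of bta-miR-449a in Angus, 5.49 in Charolais and 3.79 in KC. bta-miR-449c was at 4.72, 1.65 and 3.58. bta-miR-449b shares 20 bases with bta-miR-449a, and whether some of its reads belong to bta-miR-449a was not tested.

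The same question was put to every miRNA by fitting the slope of its counts on log2 CPM of bta-miR-449a with breed as a term (edgeR quasi-likelihood F test). Over n = 60 steers, among the 396 other miRNAs that passed the filter of 1 CPM in at least 20 steers, 0 had an adjusted p under 0.05 and 22 an unadjusted p under 0.05, which is 5.56%. bta-miR-34a had a slope of 0.09 ± 0.05 (SE) log2 units per doubling of bta-miR-449a (adjusted p = 0.918, rank 49 of 396) and bta-miR-34c one of 0.02 ± 0.08 (adjusted p = 0.999, rank 325). bta-miR-449b, bta-miR-449c and bta-miR-34b did not pass this filter.

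With all 809 other miRNAs that had a read, the neighbours of bta-miR-449a stood at the top. At an adjusted p under 0.05, again over n = 60 steers, 3 of 809 miRNAs were called, or 0.371%, and 2 of the 3 were members. bta-miR-449c had the smallest p, with a slope of 0.79 ± 0.17 (n = 60 steers, p = 1.37e-05, adjusted p = 0.00728), and bta-miR-449b the third smallest, with 0.79 ± 0.17 (p = 2.7e-05, adjusted p = 0.00728). The remaining one, named after its value was seen, was bta-miR-376a with 19 reads in 10 steers and a slope of 0.88 ± 0.19 (adjusted p = 0.00728). bta-miR-34a (slope 0.08, adjusted p = 0.86), bta-miR-34b (-0.31, adjusted p = 0.86) and bta-miR-34c (0.02, adjusted p = 0.993) were not called. The calls rest on few reads. No miRNA was called, and the slopes were 0.61 for bta-miR-449b and 0.75 for bta-miR-449c, with libraries thinned to equal depth (adjusted p = 0.188 and 0.101). Both calls also ended without the 2 farthest steers (slopes 0.87 and 0.68, adjusted p = 0.117 and 0.272), with sire in place of breed (0.77 and 0.62, adjusted p = 0.683 for both) and in the 36 steers with an RFI label (0.73 and 0.69, adjusted p = 0.538 for both).

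**Figure D4:**
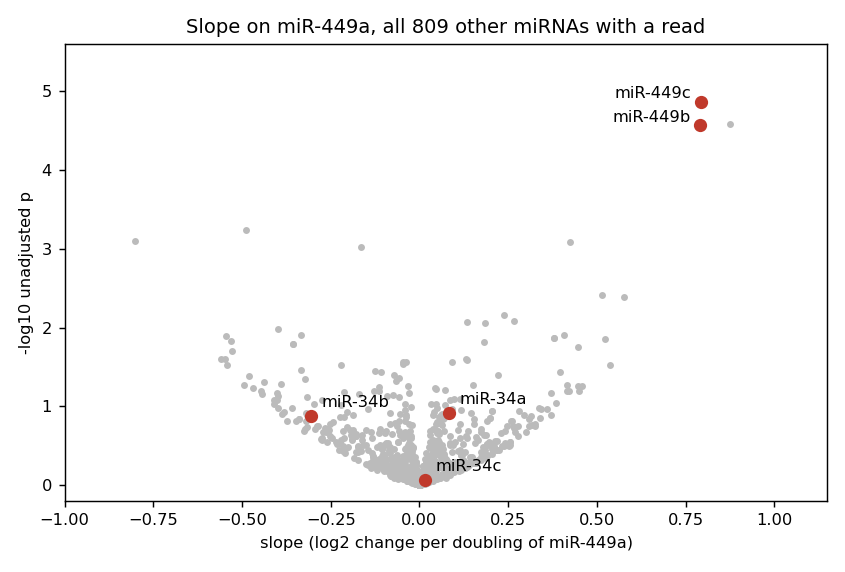
Slope on bta-miR-449a (log2 change per doubling, x axis) against -log10 of the unadjusted p (y axis) for 809 miRNAs with at least 1 read, fitted without the filter on low counts, with the members in red. bta-miR-449b and bta-miR-449c lie at the upper right with slopes of 0.79, and the miR-34 members lie among the other miRNAs.

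The miRNAs most like bta-miR-449a across steers, by Spearman's rho on log2 CPM with breed means subtracted among those that passed the filter, were bta-miR-6523a (rho = 0.37), bta-miR-2339 (0.36), bta-miR-2424 (0.35), bta-miR-885 (0.34) and bta-miR-7180 (0.30), over 60 steers. bta-miR-34a stood at rank 18 of 396 by this measure and bta-miR-34c at rank 136. Most like bta-miR-34a were bta-miR-2285k (rho = 0.39), bta-miR-218 (0.38), bta-miR-141 (0.32), bta-miR-450b (0.32) and bta-miR-532 (0.31), with bta-miR-449a at rank 16 of 396. These values are descriptions of the highest of many and were not tested. Each point is 1 library, and all miRNAs of a library share its total.

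Levels of the cell type markers were set beside the 2 most abundant members. The summed level of the biliary and other epithelial list (miR-200a, miR-200b, miR-200c, miR-141 and miR-429, all 5 present in every steer, 111 to 367 CPM in sum) had, with bta-miR-34a, r = 0.40 and rho = 0.31 (permutation p = 0.00305 and 0.0182), which did not pass correction over 18 relations (adjusted p = 0.0549 and 0.172). Within Angus r was 0.25, within Charolais 0.19 and within KC 0.59 (0.33 without the 2 KC steers farthest from the median of bta-miR-34a), and without the 2 farthest steers the pooled r was 0.31. For bta-miR-449a and this list r was -0.05 (adjusted p = 0.95). The endothelial arms of miR-126 had r = -0.31 with bta-miR-449a (permutation p = 0.0172, adjusted p = 0.155), with -0.37, -0.34 and -0.24 in Angus, Charolais and KC. Without the 2 steers of each breed farthest from the median of bta-miR-449a, these were -0.09, -0.35 and -0.31. The pooled r without the 2 farthest steers was -0.26 (permutation p = 0.0551). Hepatocyte, leukocyte, erythroid, mesenchymal and muscle lists had r between -0.08 and 0.20 with either member, and adjusted p from 0.742 to 0.95. The r within single breeds, which was not tested, ran from -0.36 to 0.37 for these lists with 1 exception. bta-miR-34a and the leukocyte list had r = 0.65 in Angus (0.58 without the 2 steers farthest from the median of bta-miR-34a), against -0.12 in Charolais and 0.08 in KC. Such sums mostly give the level of 1 abundant miRNA. The median was 232593 CPM for miR-192 and 242993 CPM for the hepatocyte sum, and 165854 and 167721 CPM for miR-143 and the mesenchymal sum. In the edgeR slope on bta-miR-449a, 1 of 4 hepatocyte and 1 of 5 leukocyte miRNAs had an unadjusted p under 0.05. It was 2 of 2 for the endothelial arms of miR-126 (median slope -0.04), and 0 for the biliary, erythroid, mesenchymal and muscle lists. Of all 396 miRNAs 5.56% had such a p, and 0 had an adjusted p under 0.05. The library total had r = -0.12 with bta-miR-449a and 0.07 with bta-miR-34a.

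Other miRNAs known as p53-responsive, a list of 9 with miR-192, miR-194, miR-215, miR-143, miR-145, miR-107, miR-15a, miR-16a and miR-16b, were set beside the family. Of these, 4 also stand in the hepatocyte and mesenchymal lists, and miR-192 and miR-143 made up 96.2% to 98.0% of their summed level in each steer. Their summed level had r = -0.01 with bta-miR-34a and 0.06 with bta-miR-449a. In the slope on bta-miR-449a, 0 of the 9 were called at an adjusted p under 0.05 and 1 had an unadjusted p under 0.05, against 0% and 5.56% of the 396 miRNAs, and their median slope was 0.00, as was that of all miRNAs tested. For low-RFI against high-RFI steers, 0 of the 9 were called in Angus, Charolais, KC or over the 36 steers, where 2.41%, 1.88%, 1.82% and 0.704% of all miRNAs were, so that these counts are near the background.

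Breed was compared next over the 60 steers. By the paper's averages, age at slaughter also differed between breeds, lowest in KC and highest in Charolais. Breed and age cannot be told apart in these comparisons. bta-miR-449a had its highest median in KC, with a lowest, median and highest level of 0.64, 2.98 and 11.3 CPM, against 0.658, 1.84 and 12.8 CPM in Charolais and 0.248, 2.03 and 14.4 CPM in Angus. The ranges overlapped almost entirely. KC exceeded Charolais by 0.98 ± 0.35 (SE) on the log2 scale (edgeR quasi-likelihood F test, n = 20 steers a breed, p = 0.00671, adjusted p = 0.041). This was 1 of 3 testable members called, in a comparison that called 16.6% of 397 miRNAs, so that a call there was common. The adjusted p was above 0.05 without the filter on low counts (0.0568) and with thinned libraries (0.101), with the difference at 0.98 and 0.97. KC against Angus gave 0.53 ± 0.34 (adjusted p = 0.337; 12.8% called) and Charolais against Angus -0.45 ± 0.38 (adjusted p = 0.553; 3.02% called).

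The other members did not pass in any pair of breeds. bta-miR-34a had medians of 9.63, 10.4 and 11.7 CPM in Angus, Charolais and KC, and its largest difference was 0.22 ± 0.15, KC against Angus (adjusted p = 0.367). bta-miR-34c had a median of 1.23 CPM in Angus, against 1.52 in Charolais and 1.71 in KC. Its differences from Angus were 0.51 ± 0.22 (adjusted p = 0.161) and 0.46 ± 0.21 (adjusted p = 0.133). Over the 3 breeds at once the adjusted p was 0.0866 for bta-miR-449a, 0.132 for bta-miR-34c and 0.472 for bta-miR-34a, where 19.4% of miRNAs were called. bta-miR-449c had 10 reads in Angus, 3 in Charolais and 17 in KC. In the fit without the filter its difference was 1.54, KC against Charolais (adjusted p = 0.0752).

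Within each breed, low-RFI steers were set against high-RFI steers as the reference, with a call at an unadjusted p under 0.05 with a fold change above 1.5. In KC the 6 low-RFI steers had 2.40, 3.83 and 11.3 CPM of bta-miR-449a as the lowest, median and highest, and the 6 high-RFI steers 0.64, 1.75 and 6.04 CPM. Every low-RFI steer exceeded the median of the other group and 4 of the 6 high-RFI steers were below every low-RFI steer, but the groups overlapped. The difference was 1.23 ± 0.50 (SE) on the log2 scale (edgeR quasi-likelihood F test, unadjusted p = 0.0265, adjusted p = 0.966), and the exact permutation test gave p = 0.0519. It was the single call among the 3 testable members, in a comparison that called 1.82% of 385 miRNAs. The call was lost without any one of 5 of the 12 steers, high-RFI replicates 1, 3 and 4 and low-RFI replicates 5 and 6, where the difference ran from 0.86 to 1.1. It was also lost with sire as a block (a difference of 0.62), a fit that left 2 residual degrees of freedom since 1 sire had steers of both groups, and in one fit of all 36 steers (1.19).

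In Angus and in Charolais the difference in bta-miR-449a rested on 1 steer. Angus low-RFI steers had 0.248, 1.86 and 14.4 CPM as lowest, median and highest, and high-RFI steers 0.518, 1.83 and 5.09 CPM, so that the medians were alike. The fitted difference of 0.80 ± 0.71 (adjusted p = 0.969, where 2.41% of 373 miRNAs were called) became -0.50 without low-RFI replicate 2, and the mean difference on log2 CPM was -0.04 (exact permutation p = 0.961). Charolais low-RFI steers had 0.658, 1.81 and 12.8 CPM and high-RFI steers 0.805, 1.03 and 2.59 CPM. The difference of 1.13 ± 0.63 (adjusted p = 0.906, where 1.88% of 373 miRNAs were called) became -0.03 without low-RFI replicate 6, and the exact permutation test of all 12 steers gave p = 0.405. Without low-RFI replicate 4 it became 1.36 and was called. Outside these steers, low-RFI levels reached only 2.20 CPM in Angus and 2.04 CPM in Charolais, below the highest high-RFI steer of each breed.

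**Figure D5:**
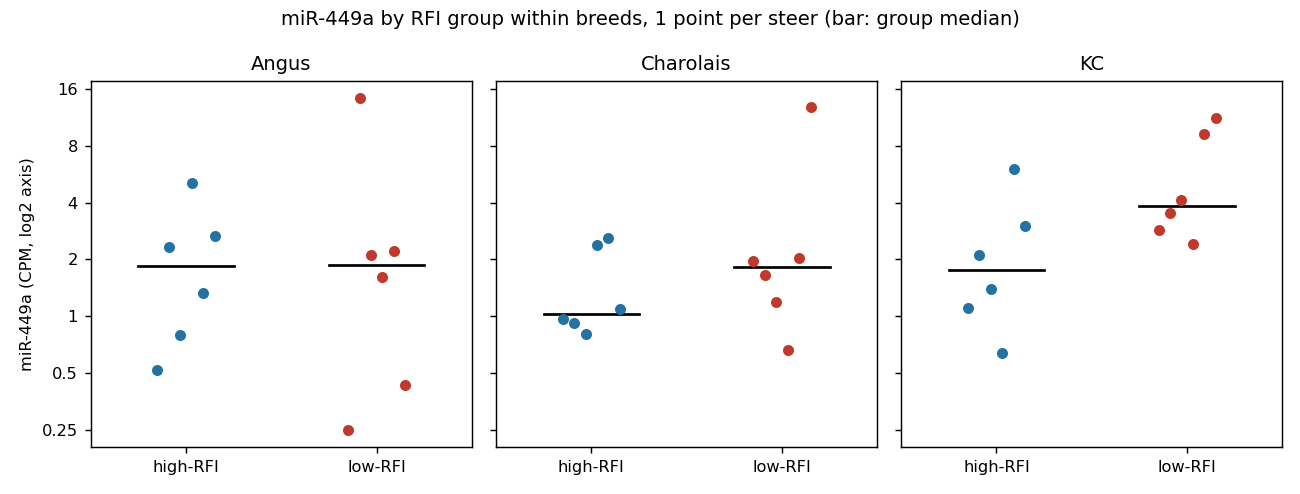
bta-miR-449a (CPM on a log2 axis, y axis) in the high-RFI and low-RFI steers (x axis) of each breed, 6 steers a group, with bars at group medians. In KC the low-RFI points sit higher as a group, while in Angus and Charolais a single low-RFI steer, at 14.4 and 12.8 CPM, stands above the rest.

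Over the 36 steers with breed as a term, bta-miR-449a was higher in low-RFI steers by 1.04 ± 0.38 (edgeR quasi-likelihood F test, n = 18 steers a group, p = 0.00998, adjusted p = 0.956, rank 4 of 426), and 0.704% of miRNAs were called. The call stood without any one steer, with differences from 0.77 to 1.22. Without both of the Angus and Charolais steers named above, left out together after their values were seen, the difference was 0.45 (n = 16 low-RFI and 18 high-RFI steers, p = 0.176) and the call was lost. The RFI effect did not differ detectably between breeds (interaction over n = 36 steers, p = 0.904), and without those steers the interaction had p = 0.0649.

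Neither bta-miR-34a nor bta-miR-34c was called by RFI group. bta-miR-34a in KC had 7.16, 14.8 and 22.2 CPM in low-RFI steers and 7.61, 10.3 and 14.9 CPM in high-RFI steers as lowest, median and highest, a difference of 0.47 ± 0.28 (edgeR quasi-likelihood F test, adjusted p = 0.966), which reached a call at 0.60 without low-RFI replicate 1. In Angus it had 9.55, 12.2 and 21.8 CPM against 7.50, 9.58 and 16.6 CPM, a difference of 0.40 ± 0.22 (adjusted p = 0.969), and in Charolais the difference was -0.01 ± 0.19. The groups overlapped in every breed. Over the 36 steers it was 0.26 ± 0.14 (n = 18 a group, p = 0.0725, adjusted p = 0.956), which met neither the p nor the fold required for a call. bta-miR-34c differed by 0.42 ± 0.43 in Angus, -0.12 ± 0.33 in Charolais and 0.01 ± 0.27 in KC, and by 0.04 ± 0.19 over the 36 steers.

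The sparse miR-449 members had more reads in KC low-RFI steers too. bta-miR-449b had 9 reads in 5 of the 6 low-RFI steers and 1 read in 1 of the 6 high-RFI steers (exact permutation p = 0.0281, adjusted over 18 tests p = 0.468). bta-miR-449c had 10 reads in 5 low-RFI steers and 3 reads in 2 high-RFI steers (exact permutation p = 0.123, adjusted p = 0.647). In the fits without the filter, bta-miR-449b differed by 2.45 ± 0.91 in KC, where it was called and 2.07% of 724 miRNAs were, and bta-miR-449c by 1.5 ± 0.88, which was not called (adjusted p = 0.805 for both). Over the 36 steers both were called, in a fit that called 2.68% of 783 miRNAs, bta-miR-449b with 1.13 ± 0.56 (n = 18 a group, p = 0.0493, adjusted p = 0.868) and bta-miR-449c with 1.4 ± 0.57 (p = 0.0182, adjusted p = 0.868). These counts are under the floor in most steers and follow those of bta-miR-449a. bta-miR-34b had 6 reads in KC low-RFI and 4 in KC high-RFI steers, 4 of the 6 from 1 steer, and differed by 0.03 ± 0.52 over the 36 steers.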

How the data were processed

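Liver tissue RNA was made into TruSeq small RNA libraries. The deposited values are raw read counts, one per pair of mature miRNA and precursor. Per the labels and the study's methods, the authors trimmed reads with cutadapt 1.16, kept 15 to 28 bases, removed other small RNAs, mapped with Bowtie 1.1.1 to UMD3.1 and counted with miRDeep2 against miRBase, without normalization. Counts were averaged over precursors and rounded, which changes library totals only, since each member has 1 precursor. Displayed CPM used TMM over 60 steers and log2 CPM a prior count of 0.5. edgeR 4.0.16 (limma 3.58.1, R 4.3.3) quasi-likelihood F tests used TMM, Benjamini-Hochberg adjustment over all miRNAs, and miRNAs at 1 CPM or more in at least 6 steers (RFI) or 20 (breed and slope). SE is approximated from the F value. Exact permutation tests used 924 relabelings (smallest p 0.00216), others 100000 resamples. DESeq2 1.42.0 served as an alternative. Python 3.11.15 ran with scipy 1.17.1, numpy 2.4.6, matplotlib 3.10.9 and pandas 2.3.3, and the fits were tested on simulated data. Depth limits precision as given with the totals. Steers were grouped by their labels, and replicate numbers follow deposition order and only name steers. Sequences are from the study's supplementary list. Members and lists were chosen with earlier results of these data known. Named miRNAs are the members, the 5 most like bta-miR-449a and the 5 most like bta-miR-34a, and the listed markers. Predicted miRNAs were not analysed here.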

Additional observations from a re-analysis of the deposited data

Results flagged for a closer look

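In 6 of 29 tested sets of values, each the levels of 1 member in 1 breed and RFI group, the highest steer lay far from the rest by Dixon's ratio. Its threshold flags about 1 in 20 sets of normally distributed values. Levels here are skewed and some rest on few reads, so that 6 of 29 cannot be set against that rate. For bta-miR-449a the flagged steers were Angus low-RFI replicate 2 at 14.4 CPM, with the next steer at 2.20, and Charolais low-RFI replicate 6 at 12.8 CPM, with the next at 2.04. For bta-miR-34a they were Angus low-RFI replicate 1 at 21.8 CPM, with the next at 12.5, and Angus high-RFI replicate 4 at 16.6 CPM, with the next at 10.03. bta-miR-34b stood apart in KC low-RFI replicate 3 at 0.692 CPM, which is 4 reads, and bta-miR-34c in replicate 5 of the KC steers without an RFI label at 2.50 CPM, with the next at 1.37. No steer stood apart in both bta-miR-449a and bta-miR-34a. The cause was not tested.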

How the results depend on the processing

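The correlations of bta-miR-449b and bta-miR-449c with bta-miR-449a kept their direction and an unadjusted permutation p under 0.05 in all 7 alternatives, with r from 0.40 to 0.58 and from 0.40 to 0.54. With 36 steers and RFI group as a term, r of bta-miR-34c turned to -0.11 and its slope to -0.063 (-0.071 without the filter on low counts), and neither is a call. Without that filter 3 miRNAs were called by slope, against 0 with it. These calls fell to 0 with thinned libraries (slopes 0.61 for bta-miR-449b and 0.75 for bta-miR-449c), with 36 steers (0.73 and 0.69), with sire in place of breed (0.77 and 0.62) and without the 2 farthest steers (0.87 and 0.68), and stood with RLE size factors, summed precursors and a prior count of 2. The combinations with no filter were chosen after seeing the data, as was leaving out both far steers, which took the difference in bta-miR-449a by RFI over 36 steers to 0.45. Thinned libraries left 10 steers with bta-miR-34b, 16 with bta-miR-449b and 10 with bta-miR-449c, and 4 miRNAs called between Charolais and Angus, against 12. The difference in bta-miR-449a between KC and Charolais lost its call with thinned libraries (0.97) and without the filter (0.98).

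Without the filter, RFI calls rose to 20 in Angus, 17 in Charolais, 15 in KC and 21 over 36 steers, against 9, 7, 7 and 3. With sire as a block, Charolais had 48 calls and KC 14, bta-miR-449a differed by -0.13 in Angus and 0.62 in KC, bta-miR-34c by -0.53 in Angus and bta-miR-34a by 0.43 in Charolais. Few sires had steers of both groups. In one fit of 36 steers bta-miR-449a in KC differed by 1.19 and was not called. Members near 0 changed sign, bta-miR-34a in Charolais to 0.0035 without the filter and 0.011 with summed precursors, and bta-miR-34c in KC to -0.0200 with RLE size factors, to -0.0196 with DESeq2, to -0.021 with summed precursors and to -0.024 in one fit of 36 steers. The cause was not tested.

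With each steer left out in turn, calls by RFI ran from 5 to 11 in Angus, 5 to 10 in Charolais, 3 to 13 in KC and 3 to 6 over 36 steers. They moved by over 1.5 times without Angus low-RFI replicate 3 (5 calls), KC low-RFI replicates 2 and 4 (11 each) and 5 (3), KC high-RFI replicates 4 (3) and 6 (13), and, over 36 steers, Charolais and KC high-RFI replicate 6 (6 and 5). The difference in bta-miR-449a ran from -0.50 to 1.2 in Angus, -0.026 to 1.4 in Charolais and 0.86 to 1.72 in KC. That in bta-miR-34a ran from -0.093 to 0.061 in Charolais. That in bta-miR-34c ran from -0.33 to 0.097 in Charolais, -0.22 to 0.12 in KC and -0.027 to 0.11 over 36 steers.

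No paired analysis was possible because the labels number steers within breeds only and pair none across RFI groups. DESeq2 was not run for the test over the 3 breeds at once or for the interaction. For RFI in Charolais, bta-miR-449a had a value in 6 alternatives, against 7 for bta-miR-34a and bta-miR-34c. Depth limits bta-miR-34b, bta-miR-449b and bta-miR-449c most, with at most 5 reads in a steer.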
